A study of Mus musculus with 72 samples.

Results

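Potassium channels open a path for potassium across the membrane and thereby set the resting potential of heart muscle cells and bring the action potential to its end. The voltage-gated alpha subunits form channels that open on depolarisation, the inward rectifiers hold the resting potential and respond to acetylcholine or to falling ATP, the two-pore subunits carry a background leak, and a further set of channels opens with internal calcium or sodium. Auxiliary subunits bind these pores and change how many reach the membrane and how fast they open or close. Atrial and ventricular muscle are known to use different sets of them.

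The genes described here are the 94 rows of the count table whose protein-coding mouse symbol starts with Kcn, of 24237 genes in all. They fall into 40 voltage-gated alpha subunits, 15 inward rectifiers, 14 two-pore subunits, 8 calcium- or sodium-activated subunits and 17 auxiliary subunits. The 72 RNA-seq libraries came from hearts of C57BL/6J mice of about 10 months (9 in the labels), dissected into right atrium, left atrium and ventricle, with 3 libraries for each sex, compartment and group. The 4 groups were naive Ahr+/+ mice, untreated Ahr-/- mice, which lack the aryl hydrocarbon (dioxin) receptor in the whole body, and Ahr+/+ mice exposed in utero to TCDD, the dioxin that activates this receptor, through gavage of the dam at 0.1 (low dose) or 1 (high dose) µg/kg per the study's methods. By those methods Ahr+/+ dams were gavaged on several days of gestation with corn oil or with TCDD in it, and Ahr-/- dams were left untreated. Ahr-/- and naive mice may therefore also differ in gavage of the dam. The labels write the doses as 100 and 1000 without a unit, name TCDD for every sample including the naive and Ahr-/- ones, and give the cells as cardiomyocytes, although the summed endothelial markers lay between 478 and 919 CPM (counts of a gene in every 1000000 counts of its library) and the summed fibroblast markers between 595 and 2870 CPM. The 3 compartments came from the hearts of 3 mice per sex and group, and the labels do not say which libraries share a heart.

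Library totals lay between 11873417 and 28789382 counts (median 19231739), and 3 counts, taken as the detection floor, corresponded to 0.253 CPM in the smallest and 0.104 CPM in the largest. Ahr itself, the targeted gene, lay between 2.00 and 9.23 CPM in Ahr-/- libraries and between 8.59 and 30.8 CPM in naive ones, with a small overlap. With both sexes in one model its log2 difference was below 0 in every compartment. It was −1.20 ± 0.20 (SE) in right atrium, not called (edgeR adjusted p = 0.292). In left atrium it was −1.55 ± 0.20 and in ventricle −2.28 ± 0.25, both called (edgeR adjusted p = 0.0238 and 0.0011). In the libraries numbered 49 to 72, 12 of the 24 went against their labels. The 4 labelled male left atrium had the atrial light chain Myl4 at 2.21 to 4.57 CPM, the level of the ventricle, the 4 labelled male ventricle had it at 704 to 3533 CPM together with Xist at 177 to 329 CPM, and the 4 labelled female right atrium had summed Y-linked genes at 155 to 304 CPM. Among the libraries numbered 1 to 48, 4 labelled atrium (4, 11, 23 and 24) had Myl4 at 5.09 to 48.7 CPM against 948 to 5196 CPM in the other 28. Bmp10, a right atrial gene, lay between 0.767 and 16.6 CPM in libraries 2, 13, 15 and 16, labelled right atrium, and at 2049 and 690 CPM in libraries 29 and 31, labelled left atrium. Compartments and sexes were therefore compared in libraries 1 to 48, and the main results are also given without the libraries that stand apart. Libraries 35, 45, 46 and 47, labelled ventricle, had Myl4 at 93.3 to 675 CPM against at most 42.5 CPM in the other 12 ventricles of libraries 1 to 48.

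Sequence is shown for the starts of 4 genes that carry the contrast between atrium and ventricle below: Kcnj3 and Kcnj5, the pair of subunits that assemble into the acetylcholine-activated inward rectifier, and Kcnip2 and Kcnj2, an auxiliary subunit of the transient outward channel and the main subunit of the classical inward rectifier. Each run covers 250 bases before and 50 bases after the RefSeq transcription start on GRCm38.p6, 5′ to 3′ on the gene's strand. Capitals mark the letters GCGTG or their reverse complement CACGC, the core of the sequence bound by the dioxin receptor, searched on both strands.
Kcnj3, chr2:55435720-55436019, plus strand: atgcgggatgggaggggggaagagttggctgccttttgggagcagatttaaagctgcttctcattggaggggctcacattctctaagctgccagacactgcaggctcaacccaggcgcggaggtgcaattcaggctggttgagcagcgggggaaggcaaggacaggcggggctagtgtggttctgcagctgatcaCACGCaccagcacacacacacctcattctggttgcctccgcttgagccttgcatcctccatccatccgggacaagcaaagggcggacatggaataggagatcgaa
Kcnj5, chr9:32344295-32344594, minus strand: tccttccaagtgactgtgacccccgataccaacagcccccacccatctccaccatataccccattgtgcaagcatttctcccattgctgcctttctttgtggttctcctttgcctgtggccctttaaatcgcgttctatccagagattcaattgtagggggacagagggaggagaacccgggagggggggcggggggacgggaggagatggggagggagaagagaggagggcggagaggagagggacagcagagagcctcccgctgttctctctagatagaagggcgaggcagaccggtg
Kcnip2, chr19:45816014-45816313, minus strand: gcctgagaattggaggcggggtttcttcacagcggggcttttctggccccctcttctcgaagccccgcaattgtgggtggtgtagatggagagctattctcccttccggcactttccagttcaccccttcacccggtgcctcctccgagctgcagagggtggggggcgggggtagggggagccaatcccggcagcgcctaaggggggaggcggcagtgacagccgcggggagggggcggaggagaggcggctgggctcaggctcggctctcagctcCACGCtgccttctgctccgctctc
Kcnj2, chr11:111065914-111066213, plus strand: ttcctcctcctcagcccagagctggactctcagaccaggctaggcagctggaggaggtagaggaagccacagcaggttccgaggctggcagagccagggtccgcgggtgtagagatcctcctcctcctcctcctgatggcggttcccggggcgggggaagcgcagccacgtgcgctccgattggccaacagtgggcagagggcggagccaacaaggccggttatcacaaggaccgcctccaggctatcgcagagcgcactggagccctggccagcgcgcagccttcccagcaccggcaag
The RefSeq start used for Kcnj3 lies 24172 bases inside the gene as annotated on GRCm38, so that the window shown is not that of its first annotated start. The other starts lie 36 bases (Kcnj5), 359 bases (Kcnip2) and 0 bases (Kcnj2) from the 5′ end of the annotated gene.
The letters occurred 1 time each in the Kcnj3 and Kcnip2 windows and not in those of Kcnj5 and Kcnj2. Of the 94 promoter windows that RefSeq gives for 69 of the genes, 32 (34.0%) held them, against 32.4% of all 32851 promoter windows. The windows are GC-rich, with 57.7% G or C for Kcnj3, 58.3% for Kcnj5, 67.0% for Kcnip2 and 66.7% for Kcnj2.

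In libraries 1 to 48, 22 of the 94 genes had a median of at least 10 CPM in a compartment, 25 had a median between 1 and 10 CPM, and 47 stayed under 1 CPM in all 3. Kcna10, Kcnk15 and Kcnk16 had 0 counts in all 72 libraries, and 9 genes had at most 3 counts in any library, so that their level was not detectable at this depth. In CPM, which are not divided by transcript length, the inward rectifiers had the largest share at 10 CPM or more, with 6 of 15. The other classes had 11 of 40 voltage-gated alpha subunits, 2 of 8 calcium- or sodium-activated subunits, 2 of 14 two-pore subunits and 1 of 17 auxiliary subunits. The share of all genes at this level is not given here. The summed level of all 94 genes ran from 1144 to 1892 CPM in ventricle (median 1451), from 1437 to 3447 CPM in left atrium (median 1782) and from 1658 to 2718 CPM in right atrium (median 2153), and the ranges overlapped.

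Levels can be set against each other only per length of transcript. On that scale Kcnk3, a two-pore leak channel closed by acid, came first with a median of 86.9 CPM per kilobase over the 48 libraries. Kcnj3 followed at 55.2, then Kcnj11, the pore of the ATP-sensitive channel, at 41.0, Kcng2, a subunit that forms channels only with other subunits, at 40.9, and Kcnj5 at 30.1 CPM per kilobase. Kcnh2 (22.8), Kcnip2 (22.2) and Kcnj12 (22.1) had nearly equal medians per kilobase, ahead of Kcnq1 (16.8) and Kcnj2 (12.6). Kcnh2 and Kcnq1 encode the pores of the rapid and slow delayed rectifier currents. The ranges over libraries of most neighbours in this order overlapped. The study's methods state that reads were counted over coding regions, and per kilobase of coding sequence the same 10 genes led in another order. On that scale the medians were 269.9 CPM per kilobase for Kcnk3, 191.4 for Kcnj3, 112.4 for Kcnj5, 110.1 for Kcnj11, 85.5 for Kcnip2 and 80.0 for Kcng2, followed by Kcnj2 (53.6), Kcnj12 (34.3), Kcnh2 (27.7) and Kcnq1 (25.5). By compartment the order changed at the top: Kcnj3 stood above Kcnk3 in right atrium, at 130.3 against 91.5 CPM per kilobase of transcript, and far below it in ventricle, at 22.3 against 81.3.

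**Figure D1:**
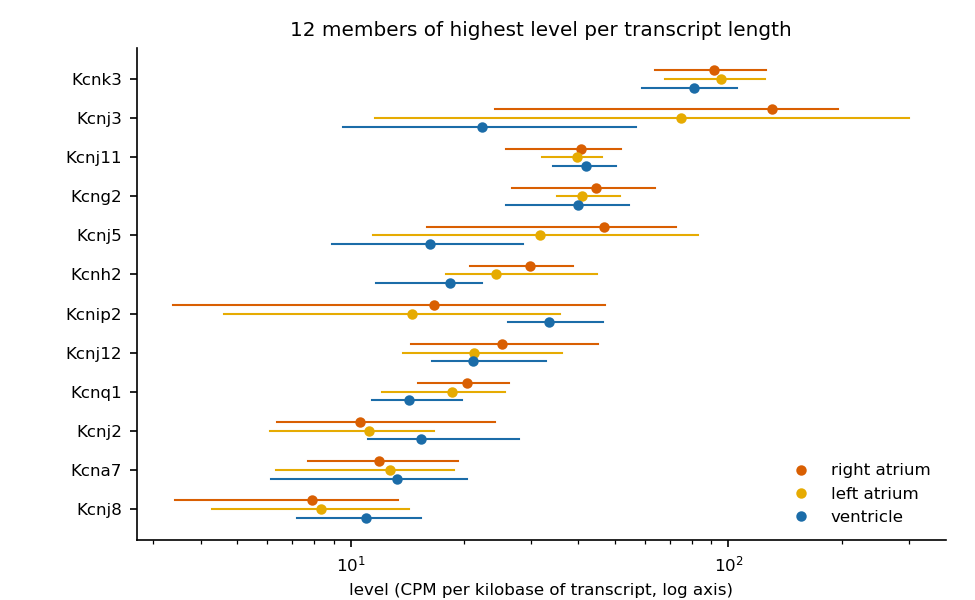
Level of the 12 genes of highest level per length, in CPM per kilobase of transcript on a log axis; points are medians and lines the lowest to highest of the 16 libraries (numbered 1 to 48) labelled right atrium, left atrium or ventricle. Kcnk3 has nearly the same median in all 3 compartments, while Kcnj3 and Kcnj5 are lowest and Kcnip2 highest in ventricle.

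The first question was which of these genes differ between the atria and the ventricle. Atrial libraries were set against ventricle libraries in one model over libraries 1 to 48 with a term for each combination of group and sex, and 54 of the 94 genes passed the filter on low counts. Of these, 25 were higher and 10 lower in the 2 atria than in the ventricle (edgeR's quasi-likelihood test, adjusted p under 0.05), a share of 64.8% of those tested, beside 52.4% of all 14790 genes tested (28.1% higher and 24.4% lower). Their median log2 difference was 0.25, beside 0.03 over all genes. In left atrium alone 24 were higher and 10 lower (63.0%, beside 43.5% of all genes, 23.8% higher and 19.7% lower), and in right atrium alone 23 were higher and 9 lower (59.3%, beside 48.7% of all genes, 26.5% higher and 22.2% lower). Scaled by library size alone, which moved the median of all genes to 0.26, 26 were higher and 6 lower, beside 52.1% and 9.45% of all genes. The model treats all libraries as independent, so its p-values take no account of compartments that share a heart. In bulk tissue fewer cells of a type and less RNA per cell cannot be told apart.

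The RNAs of the 2 subunits of the acetylcholine-activated channel were the most abundant of those called higher in the atria. Kcnj3 lay between 125 and 1018 CPM in right atrium (median 679), between 60.4 and 1568 CPM in left atrium (median 392) and between 49.6 and 297 CPM in ventricle (median 116), n = 16 each. Its partner Kcnj5 had medians of 219, 149 and 76.1 CPM in the same order, with a ventricular range of 41.8 to 134 CPM and atrial ranges of 74.5 to 341 CPM on the right and 53.6 to 388 CPM on the left. Both overlapped between atria and ventricle. Without the 4 libraries labelled atrium with low Myl4, the lowest Kcnj3 values were 279 CPM on the right and 209 CPM on the left. The lowest Kcnj5 values were then 166 and 96.3 CPM. Some overlap with ventricle remained for Kcnj3 in both atria and for Kcnj5 in left atrium. The ventricle libraries with high Myl4 were kept here. The highest ventricular values, 297 CPM for Kcnj3 and 134 CPM for Kcnj5, came from a naive female library among them. The overlap without these ventricle libraries is not given here. Over both atria, the log2 difference was 1.84 ± 0.27 (SE) for Kcnj3 (edgeR adjusted p = 5.271e-07) and 1.03 ± 0.15 for Kcnj5 (edgeR adjusted p = 6.683e-07). Kcnj3 lies at chr2:55411798-55598145 and Kcnj5 at chr9:32314706-32344380 (GRCm38). The exons of Kcnj3 overlap those of Gm26794, a non-coding gene on the other strand, and the reads do not separate the strands.

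Several less abundant genes were also higher in the atria. Kcnc2, a fast-deactivating delayed rectifier, had a median of 4.76 CPM in right atrium, 2.52 CPM in left atrium and 0.834 CPM in ventricle, and was higher in the atria by 2.24 ± 0.37 (SE) on the log2 scale (edgeR adjusted p = 4.429e-06). Kcna1, a delayed rectifier best known from neurons, had medians of 19.0 and 18.2 CPM in right and left atrium and lay between 2.25 and 11.0 CPM in ventricle, a log2 difference of 1.53 ± 0.19. Kcnt2, a sodium-activated channel, differed by 1.52 ± 0.18, with atrial medians of 7.37 and 7.00 CPM and a ventricular median of 2.55 CPM. Kcnma1, the pore of the large-conductance calcium-activated channel of smooth muscle, differed by 1.96 ± 0.43, Kcnc4, an A-type channel, by 1.82 ± 0.45, and Kcnn4, a calcium-activated channel of blood and endothelial cells, by 1.51 ± 0.53, all 3 with ventricular medians under 1 CPM.
Kcnrg, which encodes a soluble protein that suppresses voltage-gated channels, differed by 1.87 ± 0.65, but this rested in part on the 2 libraries with lung marker RNA (15 and 21, Scgb1a1 at 2061 and 736 CPM), where it stood at 27.4 and 16.6 CPM. Without them the log2 difference of Kcnrg was 1.04 ± 0.40 (edgeR adjusted p = 0.0266). Summed markers of smooth muscle lay between 61.2 and 2270 CPM in the atrial libraries and reached at most 376 CPM in the ventricular ones; their part in the difference of Kcnma1 was not tested.

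Lower in the atria were Kcnip2, 3 inward rectifiers, 4 voltage-gated alpha subunits, 1 two-pore and 1 calcium-activated subunit. Kcnip2 had the largest difference, −1.11 ± 0.20 (SE) on the log2 scale (edgeR adjusted p = 1.779e-05), and lay between 81.4 and 145 CPM in ventricle (median 104), against medians of 51.6 CPM in right and 45.3 CPM in left atrium. Its atrial ranges of 10.5 to 147 CPM and 14.4 to 112 CPM reached into the ventricular one. Without the 4 libraries labelled atrium with low Myl4, the highest values were 72.0 CPM in right and 79.7 CPM in left atrium, below the lowest ventricular value. Kcnj2 was lower by −0.73 ± 0.11, with medians of 57.5 and 60.9 CPM in right and left atrium against 83.8 CPM in ventricle, and its ranges overlapped. Kcnj8, the pore of the ATP-sensitive channel of vessels, was lower by −0.66 ± 0.15, and Kcnj11 by −0.28 ± 0.07. Of the delayed rectifiers, Kcna5 (−0.60 ± 0.16) was lower, together with Kcnv2 (−0.57 ± 0.15), a silent subunit that modifies other voltage-gated channels, and Kcna7 (−0.34 ± 0.10). Kcnn1, a small-conductance calcium-activated channel, was lower by −0.27 ± 0.08. Kcnk1, a two-pore subunit, was also lower (−0.74 ± 0.29), its exons overlapping those of the antisense gene Gm45875.

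Of the other repolarising channels, Kcnh2 was higher in the atria by 0.49 ± 0.08 (SE) on the log2 scale. Kcna4, a transient outward subunit, was higher by 0.79 ± 0.25, Kcnd3 by 0.24 ± 0.10 and Kcnq1 by 0.15 ± 0.06. Kcnd3 and Kcnq1 lost their calls without the filter on low counts and without libraries 35, 45, 46 and 47. Kcnd2, the pore with which Kcnip2 assembles, was not called (−0.21 ± 0.17, edgeR adjusted p = 0.302). Kcnk3 (−0.09 ± 0.08), Kcnj12 (−0.05 ± 0.09), Kcnn2 (−0.13 ± 0.10), Kcng2 (−0.16 ± 0.08), Kcne1 (−0.59 ± 0.41) and Kcnmb1 (0.52 ± 0.34) were not called either. By class, 10 voltage-gated alpha subunits were higher and 4 lower of 21 tested, 4 inward rectifiers higher and 3 lower of 10, 3 two-pore subunits higher and 1 lower of 6, 3 calcium- or sodium-activated subunits higher and 1 lower of 7, and 5 auxiliary subunits higher and 1 lower of 10.

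**Figure D2:**
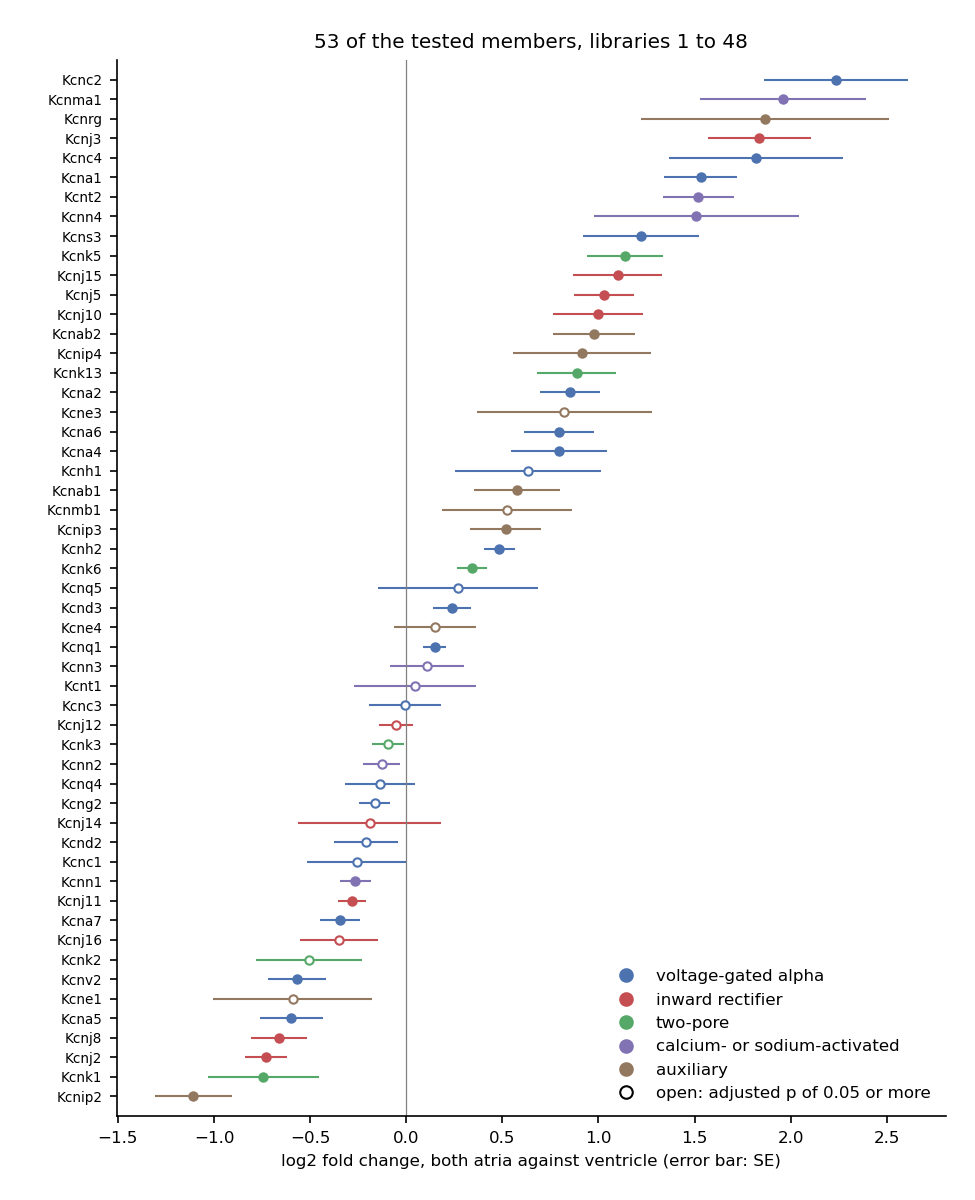
Log2 fold change of both atria against ventricle with its standard error for 53 of the 54 tested genes in libraries 1 to 48, coloured by class; open points did not pass an adjusted p of 0.05. Kcnc2, Kcnma1, Kcnrg and Kcnj3 stand highest and Kcnip2 lowest.

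All 35 genes called over both atria were also called when the 10 atrial libraries whose Myl4 or Bmp10 went against the label were left out. In the same setting 28 of the 32 calls in right atrium and 32 of the 34 in left atrium were kept. Without the 4 ventricle libraries 35, 45, 46 and 47, 31 of the 35 were kept, beside 47% of all genes called, and the 4 lost were Kcnk1, Kcnq1, Kcnd3 and Kcnip4 (edgeR adjusted p = 0.171, 0.131, 0.317 and 0.0902). Without all 14 of these libraries 32 were kept, beside 51% of all genes, and the 3 lost were Kcnk1, Kcnrg and Kcnip4 (edgeR adjusted p = 0.0615, 0.0526 and 0.0594). The log2 differences were then 2.11 ± 0.23 for Kcnj3, 1.13 ± 0.11 for Kcnj5, −1.34 ± 0.15 for Kcnip2 and −0.91 ± 0.11 for Kcnj2. All 35 kept their direction in both settings, which were chosen after seeing the data. In the 12 naive libraries of 1 to 48 alone, 4 per compartment, 2 of 53 tested genes were called, Kcnj3 and Kcnt2, both higher in the atria, beside 3.74% of all genes higher and 0.679% lower, and 17 had an unadjusted p under 0.05. Kcnrg then had a log2 difference of −0.15. With all 72 libraries grouped by label, 12 were higher and 8 lower.

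**Figure D3:**
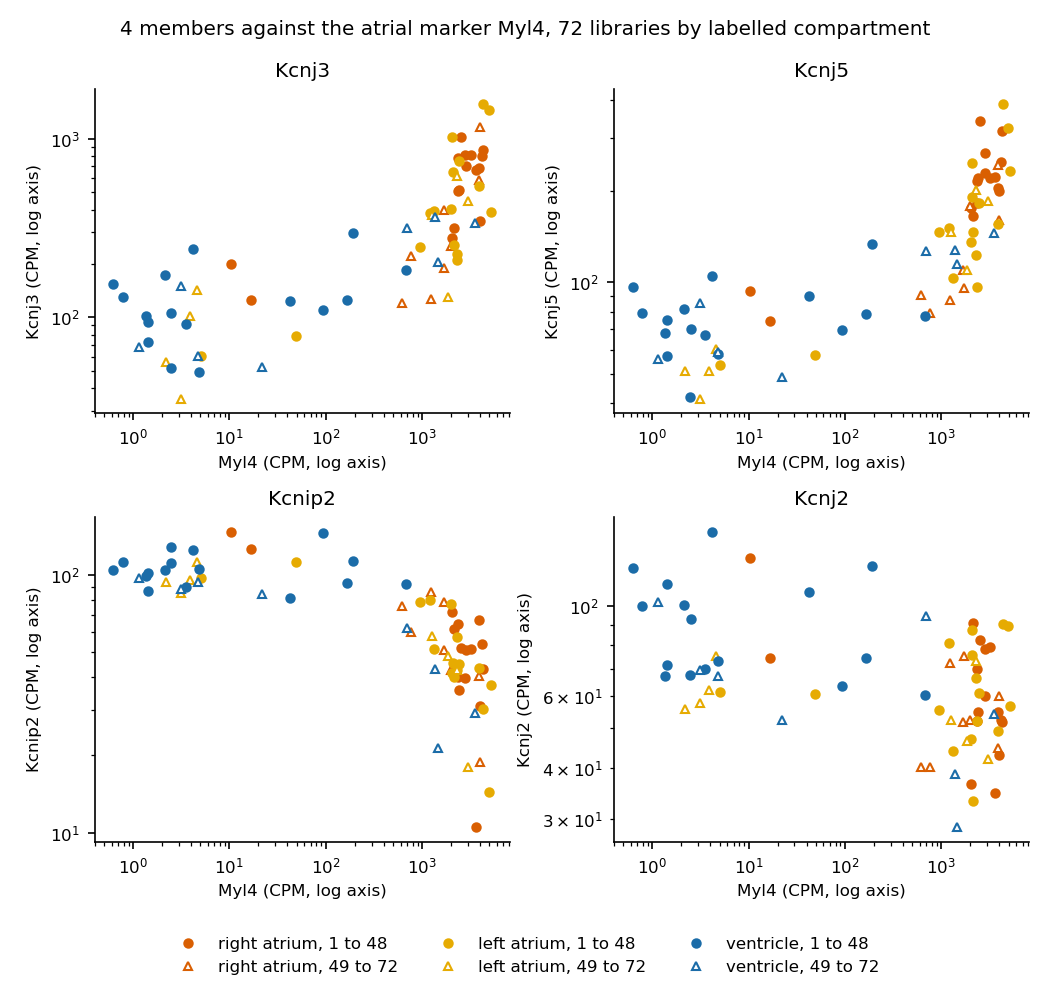
Level of Kcnj3, Kcnj5, Kcnip2 and Kcnj2 against that of the atrial light chain Myl4, in CPM on log axes, in all 72 libraries, coloured by labelled compartment; filled circles are libraries 1 to 48 and open triangles libraries 49 to 72. The libraries labelled male left atrium of 49 to 72 and libraries 4, 11, 23 and 24 sit at the left with the ventricles, and those labelled male ventricle of 49 to 72 sit at the right with the atria.

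Kcnj3 and Kcnip2 were also read in the libraries whose Myl4 went against the label. The 4 libraries of 49 to 72 labelled male left atrium (51, 57, 63 and 69) had Kcnj3 at 101, 142, 56.3 and 35.0 CPM and Kcnip2 at 95.1, 112, 93.4 and 84.7 CPM. The 4 labelled male ventricle (53, 59, 65 and 71) had Kcnj3 at 363, 316, 203 and 338 CPM and Kcnip2 at 43.1, 62.4, 21.4 and 29.2 CPM, all 4 Kcnip2 values below the ventricular range of libraries 1 to 48 and 3 of the 4 Kcnj3 values above it. In libraries 4, 11, 23 and 24, labelled atrium, Kcnip2 lay at 147, 126, 112 and 97.6 CPM.

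Right and left atrium were compared in the same model. None of the 54 genes was called by edgeR (0.00676% of all genes were, a single gene), 6 had an unadjusted p under 0.05, and DESeq2 called none. Without the 10 atrial libraries whose Myl4 or Bmp10 went against the label, a choice made after seeing the data, 4 of 56 tested genes were higher on the right and 2 higher on the left, beside 4.97% of all genes called. Kcnc2 then lay between 4.32 and 14.7 CPM in the 10 right atrial libraries and between 1.23 and 5.57 CPM in the 12 left atrial ones, a log2 difference of 1.69 ± 0.25 (SE; edgeR adjusted p = 4.7e-05), with a small overlap. Kcnj5 was higher on the right by 0.62 ± 0.11 (edgeR adjusted p = 0.00073), with medians of 226 and 149 CPM. Kcnd3, a transient outward pore, was higher on the right by 0.44 ± 0.12 and Kcnh2 by 0.32 ± 0.10. On the left, Kcnip4, an auxiliary subunit of the transient outward channel, was higher by 1.70 ± 0.37 and Kcnab1, a beta subunit of voltage-gated channels, by 1.01 ± 0.30, with medians of 1.60 against 0.503 CPM and of 4.08 against 2.88 CPM.

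**Figure D4:**
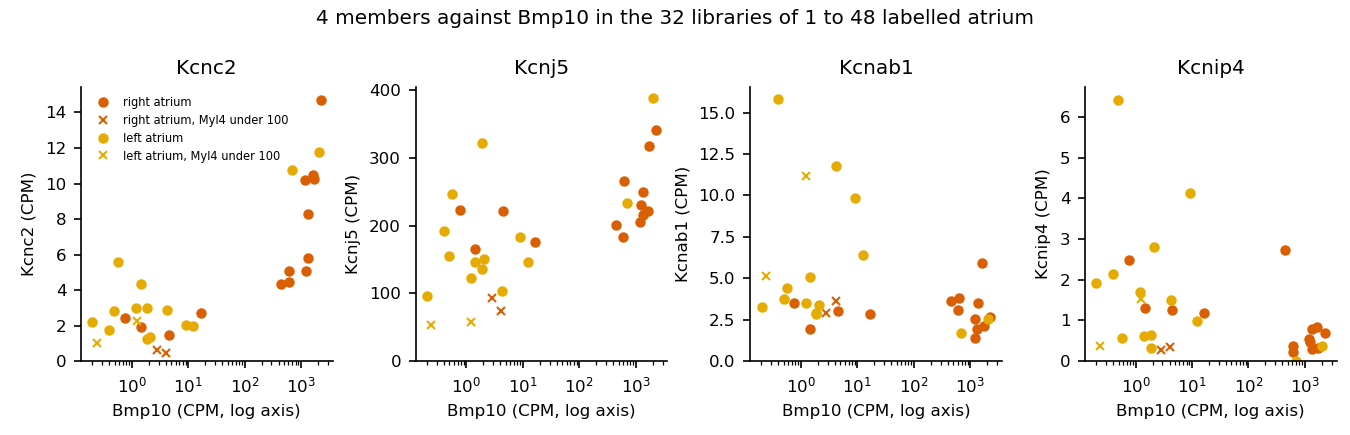
Level of Kcnc2, Kcnj5, Kcnab1 and Kcnip4 in CPM against that of the right atrial gene Bmp10 in CPM on a log axis, in the 32 libraries of 1 to 48 labelled atrium; crosses are libraries with Myl4 under 100 CPM. The libraries labelled left atrium at the right edge are 29 and 31, and Kcnc2 in these 2 stands among the right atrial values.

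The second question was whether loss of the receptor or exposure to TCDD in utero was followed by other levels in the adult. In 18 comparisons, the 3 libraries of a group were set against the 3 naive libraries that match it in sex and compartment. Members were called in 1 of them, high-dose TCDD in female ventricle, where 3 genes were lower and 1 higher of 47 tested (8.51%), beside 23.7% of all 14006 genes; the share called was below the background, and 15 had an unadjusted p under 0.05. In the other 17 comparisons edgeR called no member, with 0 to 12 at an unadjusted p under 0.05. At most 0.0216% of all genes were called there, and DESeq2 called 1 member in each of 5 of the 17. Many of the 17 held libraries whose markers went against the label. Among them were all those in female right atrium, male left atrium and male ventricle, and Ahr-/- female left atrium. There the lack of calls cannot settle whether levels differed, and some members were called in other sets of libraries, as given below.

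In female ventricle the RNA of both subunits of the acetylcholine-activated channel was lower after the high dose. Kcnj3 stood at 297, 242 and 150 CPM in the naive libraries 35, 36 and 54 and at 91.4, 106 and 52.6 CPM in the high-dose libraries 43, 44 and 66. All 3 exposed values lay below the lowest naive value, and the log2 fold change was −1.29 ± 0.21 (SE; edgeR adjusted p = 0.0021). Kcnj5 stood at 134, 105 and 85.8 CPM in the naive and at 67.2, 70.0 and 48.8 CPM in the high-dose libraries, with no overlap, and fell by 0.63 on the log2 scale (SE 0.14, edgeR adjusted p = 0.0064).
Kcnt2 stood at 6.96, 4.31 and 2.48 CPM in the naive and at 1.14, 1.91 and 1.20 CPM in the high-dose libraries (log2 fold change −1.49 ± 0.39, edgeR adjusted p = 0.0156). Kcna7, a delayed rectifier subunit of heart and skeletal muscle, rose from 22.7, 24.2 and 19.9 CPM to 32.3, 29.2 and 30.6 CPM (0.65 ± 0.15, edgeR adjusted p = 0.0084). The groups did not overlap in either gene. The exons of Kcnt2 overlap those of 4930590L20Rik on the other strand.
Without library 35, 2 members were called, Kcnj3 and Kcnj5, beside 10.9% of all genes. Kcnt2 then had a log2 fold change of −1.13 ± 0.46 (edgeR adjusted p = 0.131) and Kcna7 one of 0.61 ± 0.19 (edgeR adjusted p = 0.0512), the latter nearly as large as with library 35. With all 4 groups in one fit, Kcnj3 and Kcnt2 were called (edgeR adjusted p = 0.0390 and 0.0414), beside 4.96% of all genes, while Kcnj5 (−0.63 ± 0.18) and Kcna7 (0.65 ± 0.27) were not (edgeR adjusted p = 0.0530 and 0.147). Kcna7 was also not called in libraries 1 to 48 alone or scaled by library size (edgeR adjusted p = 0.0604 and 0.0930). Kcne1 and Kcna5, not called in the main fit, were higher by DESeq2 (1.34 ± 0.35 and 1.10 ± 0.31, DESeq2 adjusted p = 0.0012 and 0.0032). Both were also called with a term for the library series (edgeR adjusted p = 0.0170 and 0.0236). Library 35 had Myl4 at 193 CPM. Its summed atrial markers stood at 345 CPM, against 7.02 and 5.35 CPM in the other 2 naive libraries and 3.23 to 27.3 CPM in the high-dose ones. Summed fibroblast markers lay between 933 and 1618 CPM in the naive and between 796 and 905 CPM in the high-dose libraries, and the share of counts on transcripts longer than 5000 bases was 28.4 to 28.9% against 26.1 to 27.0%. The part of these in the result was not tested, apart from fits with a trend on GC content or transcript length removed. With the GC trend removed, Kcnj3 and Kcnj5 kept their calls and Kcnt2 and Kcna7 lost them. Kcnk3 was called there as lower (−0.66 ± 0.12, edgeR adjusted p = 0.0048). With the length trend removed, all 4 genes kept their calls (edgeR adjusted p = 0.0026 to 0.024).

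The same 4 genes were not called by edgeR in the other ventricle comparisons by sex. The female comparisons share the naive libraries 35, 36 and 54 and the male ones 33, 34 and 53, so the values are given side by side. In females Kcnj3 had a log2 fold change of −1.05 ± 0.26 in Ahr-/- (edgeR adjusted p = 0.486). DESeq2 called it there (−1.05 ± 0.27, adjusted p = 0.0269; 0.503% of all genes called), and so did edgeR without library 39 (−1.39 ± 0.22, adjusted p = 0.0105; 7.11% of all genes called). After the low dose Kcnj3 had a log2 fold change of −0.87 ± 0.29 after the low dose (edgeR adjusted p = 0.178). The mean Kcnj3 level in female ventricle was 229 ± 74.3 CPM (SD, n = 3) in naive mice, 105 ± 43.4 CPM in Ahr-/- mice, 83.4 ± 27.6 CPM after the high and 114 ± 56.2 CPM after the low dose. In males the high dose gave −0.79 ± 0.54 (edgeR adjusted p = 0.626) with libraries 53 and 65, whose markers went against the label, included. Without libraries 49 to 72, leaving 2 against 2, Kcnt2 (−2.49 ± 0.51) and Kcnd3 (−0.92 ± 0.28) were lower in male high-dose ventricle (edgeR adjusted p = 0.0169 and 0.0488), beside 15.9% of all genes called. In the test of the difference between the sexes' responses no member was called in any of the 9 models by edgeR or DESeq2, with 0 to 5 at an unadjusted p under 0.05. Each model held, in 1 sex, libraries of 49 to 72 whose markers went against the label, so it cannot settle whether the sexes differ. For Kcnj3 the female response to the high dose differed from the male one by −0.52 ± 0.63 (edgeR adjusted p = 0.955).

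**Figure D5:**
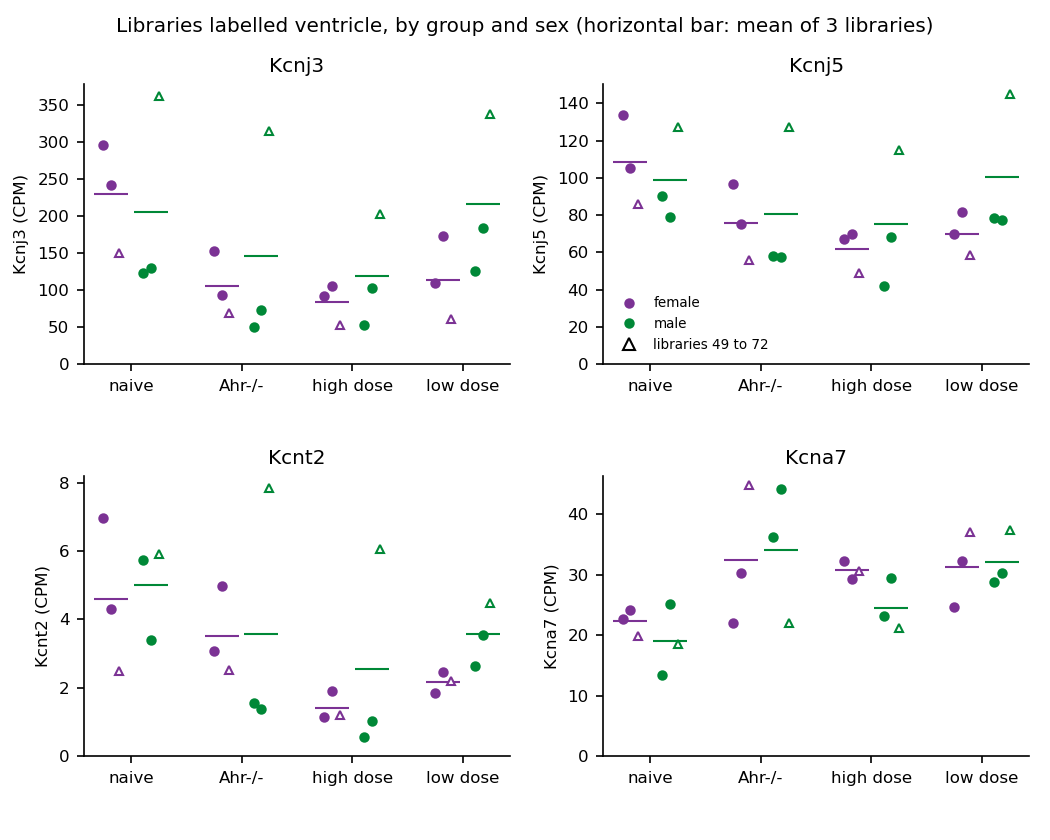
Level of Kcnj3, Kcnj5, Kcnt2 and Kcna7 in CPM in the libraries labelled ventricle, by group, with females in purple and males in green; each point is a library, the horizontal bar is the mean of 3, and open triangles are libraries 49 to 72. In each male group the triangle, a library with atrial Myl4, is the highest Kcnj3 value.

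With both sexes in one model, 6 libraries against 6, Kcnj3 was lower in high-dose ventricle (−1.04 ± 0.31, edgeR adjusted p = 0.0450; 1 of 47 tested, 2.13%, beside 13.9% of all genes). Kcna7 (0.75 ± 0.18, edgeR adjusted p = 0.0180) and Kcng2 (0.55 ± 0.17, edgeR adjusted p = 0.0415) were higher in low-dose ventricle, 2 of 45 tested (4.44%), beside 13.7%. The other 7 models called no member by edgeR, with 4 to 9 at an unadjusted p under 0.05. At most 0.0752% of all genes were called in them (0.0205% higher and 0.0547% lower, in high-dose right atrium). DESeq2 called 4 members in high-dose and 1 in Ahr-/- left atrium. Each of the 7 models held libraries whose markers went against the label. In libraries 1 to 48 alone, without the 4 labelled male ventricle whose markers went against the label, Kcnj2, Kcnj3, Kcnj5 and Kcnt2 were lower in high-dose ventricle, by −0.62, −1.01, −0.64 and −2.10 on the log2 scale (edgeR adjusted p = 0.0233, 0.0186, 0.0299 and 0.0142), beside 15.2% of all genes.
In low-dose ventricle of libraries 1 to 48, Kcnj2, Kcnt2 and Kcnd3 were lower and Kcnk1 higher, beside 15.8% of all genes, while Kcna7 and Kcng2 were not called. In high-dose left atrium of libraries 1 to 48, Kcnj3 (−1.63 ± 0.35), Kcnt2 (−1.59 ± 0.33) and Kcnd3 (−0.87 ± 0.19) were lower, beside 2.17% of all genes (edgeR adjusted p = 0.0468, 0.0450 and 0.0477). Without libraries 35, 45, 46 and 47 too, Kcnj2, Kcnj3 and Kcnt2 were lower in high-dose ventricle, beside 5.38% of all genes, and no member was called in low-dose ventricle, beside 0.0139%.

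In left atrium of Ahr-/- females the result turned on libraries that went against the label. With 3 libraries against 3 no member was called, but in libraries 1 to 48 alone 15 were, 9 lower and 6 higher, beside 18.4% of all genes. Both Ahr-/- libraries left were then 23 and 24, with Kcnj3 at 78.8 and 60.4 CPM and the Myl4 level of a ventricle.

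Sex was compared across the 4 groups in libraries 1 to 48, 8 libraries against 8. In ventricle 1 of 44 genes was called (2.27%, beside 0.247% of all 13782 genes), Kcnk1, with 12 at an unadjusted p under 0.05. Kcnk1 lay between 0.521 and 3.60 CPM in females (median 1.60) and between 1.79 and 9.59 CPM in males (median 5.51), so that the sexes overlapped in part. The log2 difference of females from males was −1.82 ± 0.27 (SE; edgeR adjusted p = 0.0029), and it was −1.99 ± 0.36 (edgeR adjusted p = 0.0417) without libraries 35, 45, 46 and 47. By label in all 72 libraries the difference was −1.58 ± 0.41 and not called (edgeR adjusted p = 0.0957), nor was that of −1.72 ± 0.45 in the 4 naive libraries of 1 to 48 alone (edgeR adjusted p = 0.335). Summed markers of smooth muscle, fibroblasts and endothelium overlapped between the sexes. Their part in the Kcnk1 difference, and that of other cell types, was not tested. In the atria edgeR called no member, with 2 on the right and 9 on the left at an unadjusted p under 0.05, and DESeq2 called none.

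A list of 22 partner genes was read in the same fits, made of subunits, scaffolds and transcription factors that act with these channels and of other proteins that move potassium. Between atria and ventricle 3 of 20 tested were higher and 11 lower, beside 28.1% of all genes higher and 24.4% lower. The regulatory subunits of the ATP-sensitive channel went opposite ways: Abcc8 was higher in the atria (0.96 ± 0.15 on the log2 scale) and Abcc9 lower (−1.30 ± 0.17), with medians of 75.6 and 52.8 CPM for Abcc8 and of 239 and 244 CPM for Abcc9 in right and left atrium, against 29.2 and 563 CPM in ventricle. Irx3 (−1.32 ± 0.25) and Irx5 (−1.24 ± 0.19), factors known to control the gradient of the transient outward current, were lower, and Dpp6, an auxiliary subunit of that channel, was higher (1.87 ± 0.57) at a median under 1 CPM. Lrrc52, a gamma subunit of large-conductance channels, was lower (−1.80 ± 0.28). In high-dose female ventricle 3 of 19 were higher and 1 lower, beside 23.7% of all genes called: Cav3, a caveolar scaffold, by 1.53 ± 0.14, Lrrc52 by 1.17 ± 0.34, Atp1b1, a subunit of the sodium pump, by 0.57 ± 0.15, and Slc12a2, a chloride cotransporter that carries potassium, by −1.10 ± 0.17. In the other 17 comparisons by sex, many of which held libraries whose markers went against the label, none was called.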

How the data were processed

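RNA-seq was done on right atria, left atria and ventricles of 72 samples. The deposited table holds whole-number read counts per gene, which the authors made from 50-cycle single reads with a poly-A kit that does not mark strand. The submitters' processing notes name bcl2fastq, CASAVA 1.8, TopHat, DESeq and mm10; annotation, strand setting and treatment of multiply mapped reads are not given in the sources used here. Reads from a gene and a gene antisense to it cannot be told apart.

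Groups were taken from the labels. Counts were analysed with edgeR 4.0.16 (filterByExpr with a minimum count of 10 and total of 15, TMM, robust quasi-likelihood test) in R 4.3.3, with Benjamini-Hochberg adjustment over all genes tested and calls at an adjusted p under 0.05. DESeq2 1.42.0 was the alternative tool; others changed the filter, scaling, threshold and libraries, or removed trends on GC content and length. Scripts were tested on simulated data. CPM divide by the library total. The p-values set differences against the spread between these libraries. Compartments of one heart are not independent, and the compartment models take no account of that. Members and lists were chosen with earlier results of these data known. The genes named are members of known cardiac currents, the called members of largest difference between compartments (up to 8 in each direction), those called against naive or between sexes, and the 10 of highest level per length; Kcnn1 and genes named only under an alternative were added after their values were seen. Gene positions and promoters are from GRCm38 and RefSeq GRCm38.p6. For edgeR the ± values are standard errors derived as the absolute log2 fold change over the square root of the F statistic. For DESeq2 they are the standard errors it reports, and SDs are named where given. They include the spread between libraries. The detection floor covers counting error only. One tested member, counted but not named, is not reported here.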

Additional observations from a re-analysis of the deposited data

How the results depend on the processing

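No paired analysis was possible because the groups share no library numbers and the labels do not say which compartments came from 1 heart. For both atria against ventricle, members higher and lower were 12 and 8 in all 72 libraries by label (35.4% of all genes called), 14 and 5 in females (29%), 2 and 0 in naive libraries (4.42%), 26 and 6 scaled by library size (61.6%), and 8 and 2 at an adjusted p under 0.0001 (18.3%). In the same order, left atrium gave 9 and 5, 9 and 3, 1 and 0, 4 lower, and 6 and 1, with 6 lower in males (19.7, 16.7, 2.35, 51.2, 10.5 and 31.6% of all genes). Right atrium gave 12 higher, 10 and 4, 0 and 0, 5 lower, and 7 and 1, with 15 higher in males (33.3, 23.5, 0.00672, 58.3, 13 and 35% of all genes). Where only 1 direction is given, the other direction also held called genes and is left out. Of the 34 left atrial calls, 28 were kept with library-size scaling and 28 in males. Of the 32 right atrial calls, 18 were kept in all 72 libraries, 28 with library-size scaling and 21 in males. Of the 35 calls, 35 were kept by DESeq2, 31 with library-size scaling and without libraries 35, 45, 46 and 47, 33 without the filter, 19 in all 72 libraries and 2 in naive libraries. The sign turned in naive libraries for Kcna7 (0.024 over both atria, 0.050 in right atrium) and Kcnrg (−0.15 over both atria, −0.066 in right and −0.23 in left atrium). Right against left atrium gave 4 higher and 2 lower (4.97% of all genes) without the 10 atrial libraries whose markers went against the label, also with libraries 35, 45, 46 and 47 left out.

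Percentages in brackets here give the share of all genes called. Against naive mice, DESeq2 called 1 member in Ahr-/- female left atrium (0.73%), right atrium (0.514%) and ventricle (0.503%), in Ahr-/- male right atrium (0.16%), in low-dose female left atrium (4.52%) and in Ahr-/- left atrium of both sexes (0.968%). It called 4 in high-dose left atrium (5.02%), 7 in high-dose (20.3%) and 4 in low-dose ventricle (19.6%) of both sexes, and 2 between the sexes in ventricle (1.37%). Libraries 1 to 48 gave 15 in Ahr-/- female left atrium (18.4%), 2 in high-dose male ventricle (15.9%), 2 in Ahr-/- (2.75%; 0 and 0% without libraries 4, 11, 23 and 24) and 3 in high-dose left atrium (2.17%) of both sexes, and 4 each in high-dose (15.2%) and low-dose ventricle (15.8%) of both sexes. Without libraries 35, 45, 46 and 47 the ventricles of both sexes gave 3 after the high (5.38%) and 0 after the low dose (0.0139%), where Kcng2 stood at −0.19. High-dose female ventricle gave 7 scaled by library size (17%), 7 with a term for the library series (24.5%) and 0 at 0.0001 (0.0286%). High-dose ventricle of both sexes gave 5 with that term (16.7%) and 0 with library-size scaling (11%), without the filter (7.43%), at 0.0001 (0%), or with the trend on GC content (1.02%) or length (6.84%) removed; low-dose ventricle gave 0 at 0.0001 (0%) and with either trend removed (3.57 and 2.35%). The sex comparison in ventricle gave 4 without the filter (0.566%) and 0 in naive libraries (0.0435%) or at 0.0001 (0.0363%). Leaving out 1 library gave 2 to 9 members in high-dose female ventricle (2 without library 35, 10.9%; 9 without 44, 27.2%; 7 without 54, 19.3%), 0 to 5 in Ahr-/- female left atrium (5 without library 58, 2.45%), 0 to 2 in Ahr-/- female ventricle (2 without library 39, 7.11%) and 0 in the other 15. The cause of these changes was not tested. Genes under about 1 CPM rest on few counts, and their differences carry the widest errors.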

Other observations

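Several channel genes that are near the detection floor in most libraries were high in a few. In libraries 15 and 21, labelled right and left atrium, the summed lung markers stood at 2064 and 741 CPM, nearly all Scgb1a1, a secretory gene of the airway, against at most 65.9 CPM in the other 70. Kcnrg stood there at 27.4 and 16.6 CPM against at most 2.91 CPM in the other 70, Kcne3, an auxiliary subunit of epithelial channels, at 21.3 and 15.7 CPM against at most 2.91 CPM, and Kcnmb2, a beta subunit of the large-conductance calcium-activated channel, at 14.2 and 5.76 CPM against at most 0.476 CPM. Kcnj13, an inward rectifier of epithelia, stood at 4.03 and 2.22 CPM against at most 1.48 CPM. Kcnk1 stood at 12.2 and 11.0 CPM, with 9.59 CPM the highest value elsewhere.

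Summed smooth muscle markers stood at 3868 CPM in library 65, 2270 CPM in library 23 and 1832 CPM in library 50, beside a median of 301 CPM over the 72 libraries. Kcnmb1, the beta subunit known from smooth muscle, was highest in library 65 at 23.5 CPM, with 13.9 CPM in library 23 and a median of 1.59 CPM. Kcnma1, its pore, stood at 11.8 CPM in library 65, 12.2 CPM in library 50 and 8.71 CPM in library 23, but its highest value, 14.5 CPM, was in library 17, and the median was 1.20 CPM. The part of other tissue in these levels was not tested. These genes and libraries were chosen after their values were seen.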
